A study of Mus musculus with 24 samples.

Results

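The comparison described here is that of old with young cerebral cortex in wild-type (WT) mice. It rests on the 3 arrays titled as old WT cortex, from mice 655 days old, and the 3 titled as young WT cortex, from mice 100 days old, which are 6 of the 24 arrays of the series and were chosen by their titles alone. Each array was an Affymetrix oligonucleotide array hybridized with RNA pooled in equal parts from 2 to 3 male C57BL/6J mice, so that the spread between arrays is that between pools and not between single mice. The other groups used below are old (655 days) and young (100 days) ApoD-KO cortex, which lacks apolipoprotein D, a secreted lipid-binding lipocalin, and old (655 days) and young (100 days) WT hippocampus, each with 3 arrays of the same strain and sex. The series was designed to ask whether losing ApoD alters ageing differently in cortex and hippocampus, and the WT cortex supplies the normal course of ageing in 1 of the 2 regions.

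Ageing of the mouse cortex is commonly described as a mild shift of many transcripts rather than a replacement of one programme by another. Glial and immune transcripts, such as those of complement, antigen presentation and reactive astrocytes, are widely reported to increase, while transcripts of immature neurons, of extracellular matrix and of new oligodendrocytes are widely reported to decline. Whole cortex is a mixture of neurons, astrocytes, oligodendrocytes, microglia and vascular cells, so a lower level in such tissue can reflect fewer cells of a type or less RNA per cell, and the 2 cannot be told apart in these pools.

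Levels are given as log2 signal, and a change is the mean of old minus the mean of young arrays, so that a change of 1 is a doubling of the signal. The deposited table lists Ensembl gene IDs without gene names, and the RefSeq gene table used with it, of assembly GRCm38.p6, lists 0 Ensembl IDs and matched 0 of the 23879 IDs. No gene name, function or cell type is therefore attached to any ID below, the cortical origin of the tissue was not checked against marker genes, and 4 IDs are described in full, 2 that rose and 2 that fell. Where the origin could be examined without names, the arrays followed their labels: for all 6 arrays the most highly correlated of the other 23 arrays was a cortex array. Their correlation with any cortex array was at least 0.990 across the tested IDs and with any hippocampus array at most 0.975, as a description across IDs that share each array.

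Most of the measured cortical transcriptome lay close to its young level in old mice. The median change over the 14327 IDs bright enough to be tested was -0.0016 log2, and the middle 90% of IDs lay between -0.17 and 0.18 log2. Changes above 0 made up 49.4% of the tested IDs. The deposited array medians lay between 7.31 and 7.42 log2, and any scaling of the arrays to each other would hide a shift shared by most IDs. The median standard error (SE) of a change was 0.0746 log2, so that at this SE the 95% interval of a change reached 0.155 log2 to either side. A change of over 1.5-fold was measured for 37 IDs, of which 31 were higher and 6 lower in old cortex.

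Neither the correlations between arrays nor the first principal component set all old arrays apart from all young ones. Pairs of arrays of the same age had correlations of 0.993 to 0.996, and pairs of different age 0.990 to 0.995, so the ranges overlapped. For 3 of the 6 arrays the nearest array in the series belonged to its own age and genotype. A nearest KO cortex array of the same age did not count as a match. How many nearest arrays shared the age alone was not counted. The first principal component of the 6 arrays held 40.1% of the variance. On it young replicate 3 lay at -2.97, between old replicate 1 at -1.53 and old replicate 2 at -5.97. Young replicates 1 and 2 lay at 13.4 and 7.83 and old replicate 3 at -10.7. On the second component young replicate 3 lay at -10.1, below old replicates 1, 2 and 3 at 8.28, -1.03 and 1.53. The overlap of the ages is thus one along the first component alone. Young replicate 3 was also the WT cortex array farthest from its group mean, its root mean square deviation being 0.106 log2, against 0.0903 to 0.0996 for the other young arrays and 0.0778 to 0.0855 for the old arrays. Its deviation ranked 3 among the 24 arrays.

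**Figure D1:**
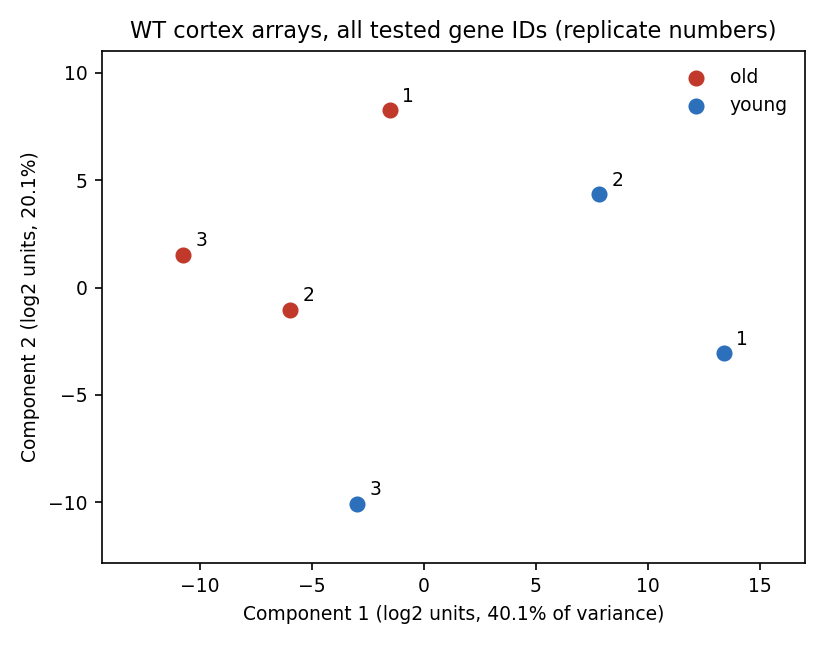
The 6 WT cortex arrays on their first 2 principal components over 14327 gene IDs, in log2 units, with old arrays in red, young arrays in blue and the replicate number beside each point. Young replicate 3, at -2.97 on the first component, sits among the old arrays along that axis and apart from all others, at -10.1, along the second.

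Against this background a limited set of transcripts changed by more than the spread between pools. With limma, fitted to all 24 arrays with p-values adjusted over the 14327 IDs, 148 IDs were called at an adjusted p under 0.05, which is 1.03% of those tested. Of these, 118 were higher in old cortex (0.824%) and 30 lower (0.209%). Without adjustment 1616 IDs had a p under 0.05, of which 925 were higher and 691 lower in old cortex, where chance alone gives 716. The last ID inside the threshold had a change of 0.29 log2 (limma adjusted p = 0.0496) and the first outside it a change of 0.22 (limma adjusted p = 0.0505).

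**Figure D2:**
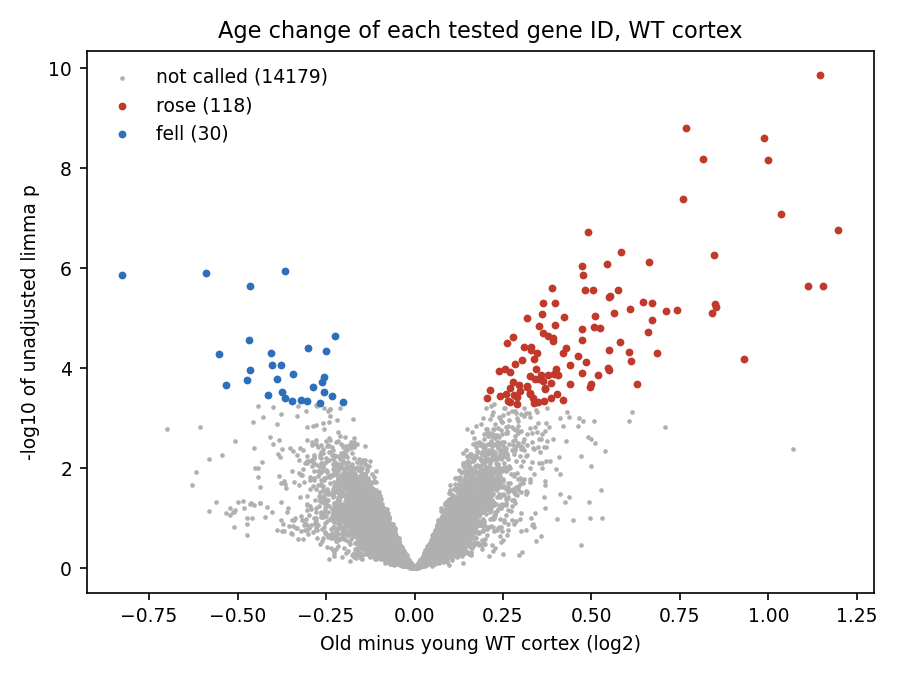
Change with age in WT cortex (old minus young, log2) against −log10 of the unadjusted limma p for each of 14327 gene IDs, with the 118 that rose in red, the 30 that fell in blue and the rest in grey. The called IDs reach 1.20 log2 on the rising side and -0.83 on the falling side, while most IDs lie near 0.

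The IDs that rose were more numerous and reached larger changes than those that fell. Rising IDs changed by a median of 0.41 log2, which is 1.33-fold, with a range of 1.15-fold to 2.29-fold. Of the 118, 27 changed by over 1.5-fold and 5 by over 2-fold, while 7 changed by less than 1.2-fold. Falling IDs had a median change of -0.37 log2, a 1.29-fold difference, and ranged from 1.15-fold to 1.77-fold. Of the 30, 2 changed by over 1.5-fold, 0 by over 2-fold and 7 by less than 1.2-fold.

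Size alone did not decide a call. Of the 37 IDs that changed by over 1.5-fold, 8 were not called, and their median SE was 0.194 log2, against 0.120 for those that were called. In all 118 rising and all 30 falling IDs the 3 old arrays lay wholly above or wholly below the 3 young arrays. Such separation was also present in 1096 IDs with a higher and 882 with a lower level in old cortex that were not called. It held in the upward direction for 8.47% and in the downward direction for 6.37% of all tested IDs. With only 3 arrays at each age, some IDs separate in this way by chance, so separation alone is no sign of a change.

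The called IDs came from every part of the measured range of levels. With the tested IDs divided by mean level into 4 bins of equal size, the dimmest bin ran from 6.63 to 7.78 log2, and in it 16 rose and 4 fell. In the next bin, up to 8.91 log2, 47 rose and 10 fell, and in the one above, up to 10.1 log2, 30 rose and 12 fell. In the brightest bin, up to 14.3 log2, 25 rose and 4 fell. Rising calls were thus rarest among the dimmest IDs, at 0.447% of that bin, against 1.31%, 0.838% and 0.698% in the bins above it. The median SE was 0.0853 log2 in the dimmest and 0.0598 in the brightest bin.

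The ID with the largest increase was ENSMUSG00000082286. Its levels were 11.78, 11.35 and 11.65 log2 on the 3 old arrays, against 10.61, 10.19 and 10.40 on the 3 young arrays. The lowest old array lay above the highest young array, and the 2 ages did not overlap. This and the other IDs described were chosen among those with old and young WT cortex arrays wholly apart. Their lack of overlap in WT cortex was therefore set by the choice. The means were 11.59 ± 0.22 in old and 10.40 ± 0.21 in young cortex (SD, n = 3 each), a change of 1.20 log2 (95% interval 0.87 to 1.52, 2.29-fold, limma adjusted p = 3.0e-04).

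ENSMUSG00000041596 was next in size. It had levels of 9.52, 9.77 and 9.67 log2 on the old arrays, against 8.75, 8.41 and 8.34 on the young arrays, again with no overlap. The means were 9.65 ± 0.12 in old and 8.50 ± 0.22 in young cortex (SD, n = 3 each), a change of 1.15 log2 (95% interval 0.78 to 1.53, 2.23-fold, limma adjusted p = 0.0016). Young replicate 1 was the highest of the young arrays for this ID, and the other 2 lay close together.

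The largest decrease among the called IDs was that of ENSMUSG00000009376. It had levels of 6.45, 6.51 and 6.49 log2 on the old arrays, against 7.32, 7.19 and 7.42 on the young arrays. The old arrays were tightly grouped, with a mean of 6.48 ± 0.03, and the young arrays had a mean of 7.31 ± 0.12 (SD, n = 3 each). The change was -0.83 log2 (95% interval -1.08 to -0.57, 1.77-fold, limma adjusted p = 0.0011). Its old levels lay below 6.63 log2, the mean level over all arrays that an ID had to exceed to be tested, so its signal in old cortex is dim and, with the background level unknown, its fold is uncertain.

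ENSMUSG00000030223 had the next largest decrease among the called IDs. Its levels were 8.01, 8.29 and 8.13 log2 on the old arrays, against 8.65, 8.78 and 8.77 on the young arrays, with no overlap. The means were 8.14 ± 0.14 in old and 8.73 ± 0.07 in young cortex (SD, n = 3 each), a change of -0.59 log2 (95% interval -0.77 to -0.41, 1.51-fold, limma adjusted p = 0.0011).

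**Figure D3:**
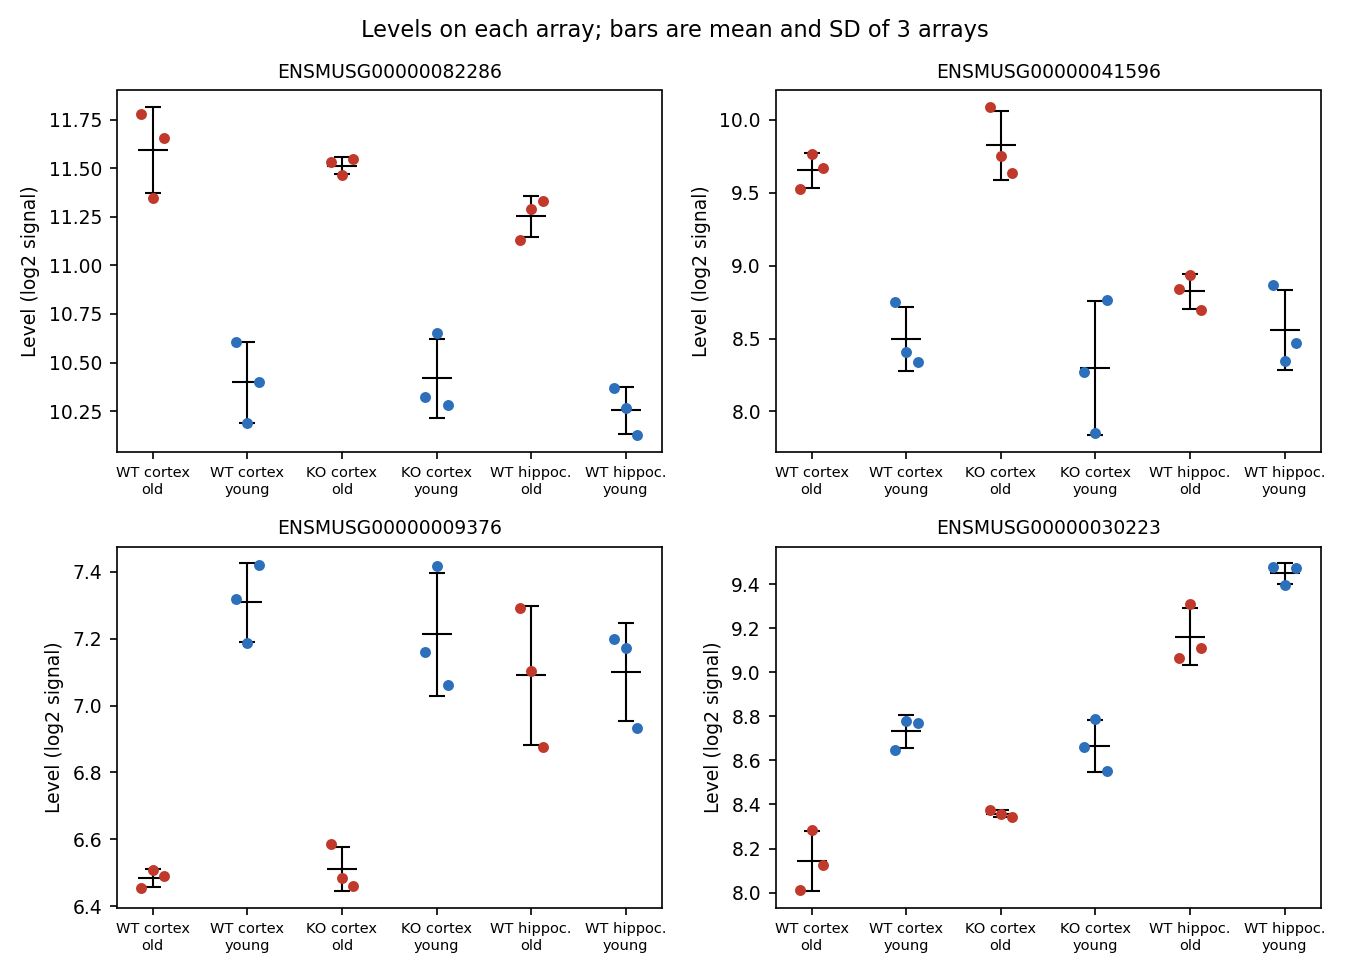
Level (log2 signal) of the 4 gene IDs on each array of 6 groups, with old arrays in red and young arrays in blue, and black bars for the mean and SD of 3 arrays. In WT cortex the old and young arrays do not overlap for any of the 4, which the choice of these IDs required. In WT hippocampus, which had no such requirement, they overlap for ENSMUSG00000041596 and ENSMUSG00000009376.

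The counts depended on single arrays, which the SD over 3 pools does not show. The 118 rising IDs numbered 58 and 64 in fits that left out old replicate 2 or 3, and 71 in the fit that left out young replicate 1. The 30 falling IDs numbered 19 and 6 without old replicates 2 and 3, 13 and 10 without young replicates 1 and 2, and 55 without young replicate 3, the array that stood apart. The total of 148 was 77 and 70 without old replicates 2 and 3, and 84 and 94 without young replicates 1 and 2. Falling IDs also numbered 49 without replicate 1 of young KO hippocampus, which is not in the comparison but whose spread enters the fit. Through all 6 of the fits that left out a WT cortex array, 51 of the 148 IDs remained called, 46 that rose and 5 that fell.

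**Figure D4:**
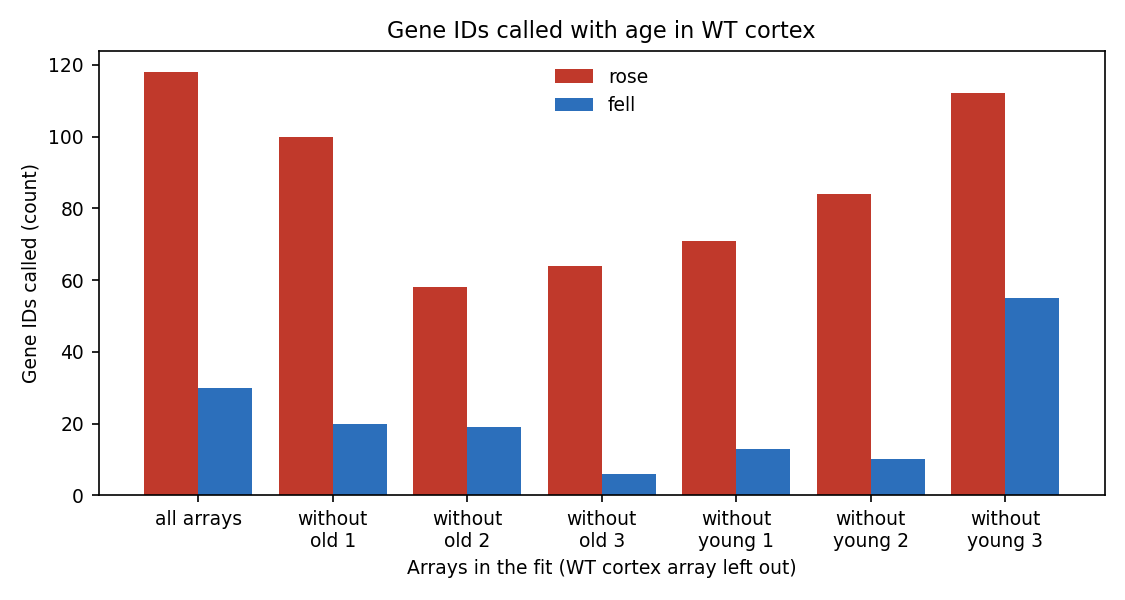
Number of gene IDs that rose (red) and fell (blue) with age in WT cortex, in the fit to all arrays and in fits that left out 1 WT cortex array each. Rising IDs outnumbered falling ones in each of these fits, by 118 to 30 with all arrays and by 112 to 55 without young replicate 3.

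The ApoD-KO cortex gave the same measurement on other arrays of the same region, at the same ages. Of the 118 IDs that rose in WT cortex, 110 had a change above 0 in KO cortex, where 58.6% of all tested IDs did. The 3 old KO arrays lay wholly above the 3 young KO arrays in 66 of the 118, which is 55.9%, against 13.6% of all tested IDs, and wholly below in 0. Of the 30 that fell in WT cortex, 27 had a change below 0 in KO cortex, against 41.4% of all tested IDs, and the old KO arrays lay wholly below the young in 20, which is 66.7%, against 7.95% of all tested IDs. The KO arrays had entered the choice of these IDs through the filter on mean level and the shared spread, but not through the change with age. By limma 41 of the 118 rose in KO cortex (34.7%, against 1.12% of all tested IDs) and 6 of the 30 fell (20.0%, against 0.544%), in fits that share 1 spread per ID.

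The sizes were smaller on the KO arrays. The median change of the 118 was 0.41 log2 on WT and 0.19 on KO arrays, and that of the 30 was -0.37 on WT and -0.15 on KO arrays. The IDs had been picked for their change on the WT arrays, so the WT medians are inflated and the gap between the genotypes is no measure of an effect of ApoD. The same holds for the mean level of the 118 IDs on each array. It was 9.16, 9.25 and 9.21 log2 in old WT cortex, against 8.71, 8.73 and 8.71 in young WT cortex. In KO cortex it was 9.08, 9.09 and 9.16 on the old arrays, against 8.77, 8.88 and 8.85 on the young arrays. The 2 ages did not overlap in either genotype.

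Tested directly, the change with age was not called as differing between WT and KO cortex for any ID at an adjusted p under 0.05. The count was 0 with limma, which is 0% of 14327 IDs, with a smallest adjusted p of 0.287. At an unadjusted p under 0.05 there were 889 IDs, where chance alone gives 716. The median SE of this difference was 0.106 log2, against 0.0746 for the WT change with age, so the test is the less sensitive of the 2. For ENSMUSG00000082286 the change in WT minus that in KO cortex was 0.10 log2 (95% interval -0.36 to 0.56), and its sign turned without replicate 2 of young WT or of young KO cortex. For ENSMUSG00000041596 the difference was -0.38 log2 (-0.90 to 0.15), for ENSMUSG00000009376 -0.12 (-0.49 to 0.24) and for ENSMUSG00000030223 -0.28 (-0.54 to -0.02). These intervals are for single IDs without adjustment and reach as far as -0.90 log2. Each of these IDs was picked for its change on the same WT cortex arrays that enter the difference. The differences are therefore biased in the direction of the WT change. The interval of ENSMUSG00000030223 leaves out 0, but its limma adjusted p was 0.772, and with this bias it is no measure of an effect of ApoD. The count of IDs called as differing was 2 without young WT cortex replicate 3.

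The 4 IDs had these levels in KO cortex. ENSMUSG00000082286 was at 11.53, 11.46 and 11.55 log2 on the old KO arrays, against 10.32, 10.65 and 10.28 on the young KO arrays, a change of 1.10 (limma adjusted p = 6.8e-04). ENSMUSG00000041596 was at 10.09, 9.75 and 9.63 on the old KO arrays, against 8.27, 7.85 and 8.77 on the young KO arrays, a change of 1.53 (limma adjusted p = 7.3e-05). Both rose in KO as in WT cortex, with old and young arrays wholly apart.

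Of the falling IDs, ENSMUSG00000009376 was at 6.59, 6.48 and 6.46 log2 on the old KO arrays, against 7.16, 7.42 and 7.06 on the young KO arrays, a change of -0.70 (limma adjusted p = 0.0049). ENSMUSG00000030223 was at 8.38, 8.36 and 8.34 on the old KO arrays, against 8.66, 8.79 and 8.55 on the young KO arrays, a change of -0.31 that did not pass the threshold (limma adjusted p = 0.0765). The old and young KO arrays did not overlap for either ID.

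**Figure D5:**
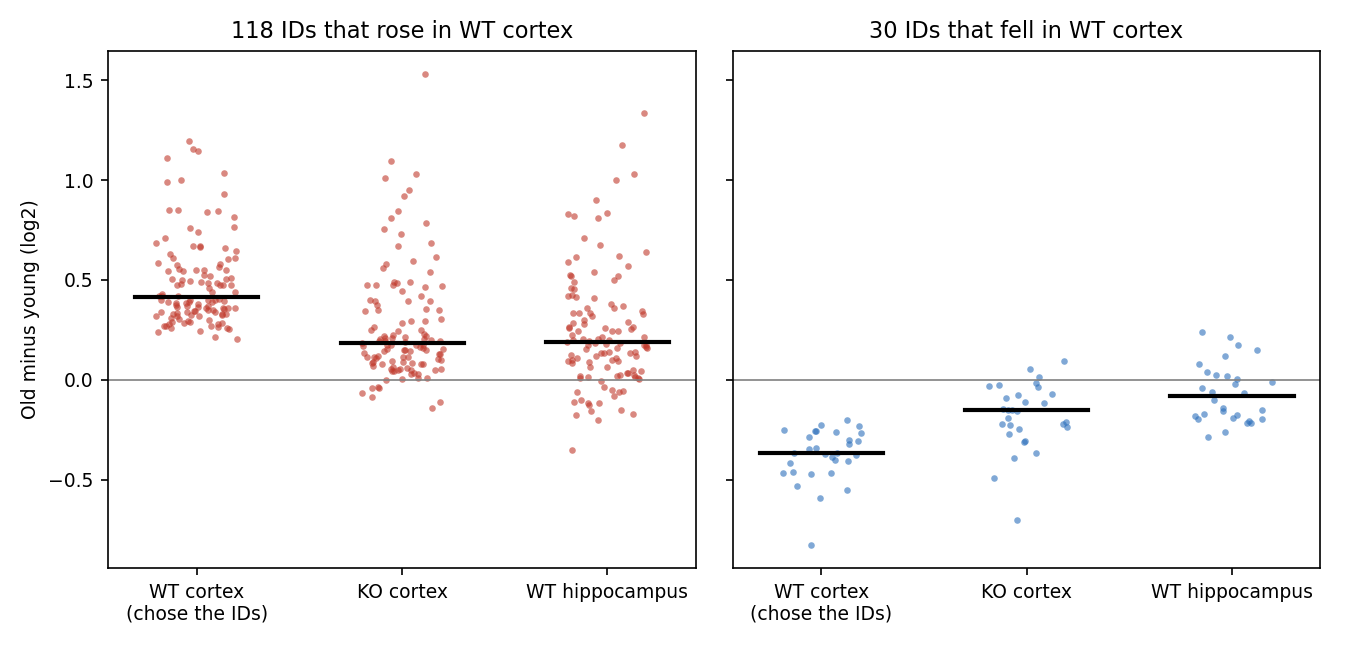
Change with age (old minus young, log2) of the 118 gene IDs that rose and the 30 that fell in WT cortex, shown for WT cortex, KO cortex and WT hippocampus, with 1 point per ID and a black bar for the median. The medians of the rising IDs are 0.41, 0.19 and 0.19 log2 and those of the falling IDs -0.37, -0.15 and -0.08, and the WT cortex values chose the IDs.

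In the hippocampus of WT mice, too, most of these IDs had a change in the same direction. Of the 118 IDs that rose in WT cortex, 100 had a change above 0 in hippocampus, where 53.5% of all tested IDs did, and the old hippocampus arrays lay wholly above the young in 69 (58.5%, against 19.9% of all tested IDs) and wholly below in 7. Of the 30 that fell in cortex, 20 had a change below 0 in hippocampus, against 46.5% of all tested IDs, and the old arrays lay wholly below the young in 11 (36.7%, against 13.3%) and wholly above in 4. The median change in hippocampus was 0.19 log2 for the 118 and -0.08 for the 30. By limma 40 of the 118 also rose in hippocampus (33.9%, against 3.78% of all tested IDs) and 1 fell, and 3 of the 30 fell (10%, against 1.21%) and 2 rose. Whether the rising and the falling IDs differ in this was not tested.

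The test of the difference itself, the WT age change in cortex minus that in hippocampus, called 292 IDs (2.04%). The change was higher in cortex for 79 of them (0.551%) and lower for 213 (1.49%). Among the 148 IDs called in cortex, 20 of the 118 that rose and 7 of the 30 that fell were called as differing, each in the direction of its own change in cortex. The 148 had been picked on the same WT cortex arrays that enter the difference, so this direction is largely built in. The 79 with a higher change in cortex had a median change of 0.19 log2 in cortex and -0.21 in hippocampus. Of these, 20 rose in cortex, 34 fell in hippocampus and 26 were called in neither region alone. The 213 with a lower change in cortex had a median change of -0.14 in cortex and 0.30 in hippocampus. Of these, 164 rose in hippocampus, 7 fell in cortex and 44 were called in neither. Both sets were picked on this difference, so the opposite signs of their medians are partly built in. The count of 292 was unsteady, running from 6 to 597 without single arrays and reaching 931 with array weights. The array titles do not say whether same-numbered cortex and hippocampus pools share mice, and the main fit treated them as independent. With same-numbered pools as a random block the count was 306. The split by direction moved with the scaling, with 27.1% of the called IDs higher in cortex as deposited, 44.6% of 471 after quantile normalization and 17.2% of 402 after median centring.

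ENSMUSG00000009376 was the 1 of the 4 IDs with such a difference. In hippocampus its levels were 7.29, 7.10 and 6.88 log2 on the old arrays, against 7.20, 7.17 and 6.93 on the young arrays, which overlapped, and the change was -0.01 (95% interval -0.26 to 0.25). The change in cortex minus that in hippocampus was -0.81 log2 (95% interval -1.18 to -0.45, limma adjusted p = 0.0237), and this call was lost under 7 of 21 other settings. The old cortex arrays were the low ones, in both genotypes.

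The other 3 differences were not past the threshold. ENSMUSG00000082286 was at 11.13, 11.29 and 11.33 log2 on the old hippocampus arrays, against 10.37, 10.27 and 10.12 on the young ones, a change of 1.00 (limma adjusted p = 0.0013) that differed from that in cortex by 0.20 (95% interval -0.26 to 0.66, cortex minus hippocampus). ENSMUSG00000041596 was at 8.84, 8.93 and 8.69 on the old hippocampus arrays, against 8.87, 8.34 and 8.47 on the young ones, which overlapped. Its change of 0.26 (limma adjusted p = 0.415) in hippocampus was below that in cortex by a difference of 0.89 log2 (95% interval 0.36 to 1.42, limma adjusted p = 0.0670, cortex minus hippocampus), which passed the threshold under 4 of 22 other settings. ENSMUSG00000030223 was at 9.07, 9.31 and 9.11 on the old hippocampus arrays, against 9.48, 9.40 and 9.47 on the young ones, without overlap, and the difference was -0.30 (95% interval -0.56 to -0.04, limma adjusted p = 0.199).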

How the data were processed

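The values analysed are log2 signals deposited by the authors, 1 for each of 23879 Ensembl gene IDs and 24 arrays. They ran from 3.99 to 14.4 and 0 were missing. MAS5 and RMA are named in the submitters' processing notes, without their roles. Neither the array model nor the way probes were joined into IDs is stated there. That the scale is log2 was judged from the values. No detection calls were used, and the background level is unknown. The number of arrays limits the precision.

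With R 4.3.3 and limma 3.58.1, IDs above the 40th percentile of the mean over all arrays (6.63 log2) were tested, leaving out 9552. Each of 8 groups had a mean in 1 model, with 16 residual degrees of freedom and eBayes moderation. Two-sided p-values were adjusted in each comparison (Benjamini-Hochberg), and only called IDs are said to have risen or fallen. The code was checked on simulated data. Named genes were to be the 15 largest changes in each direction among called IDs whose old and young arrays lay wholly apart. This became 2 in each direction because no table used here names the IDs, and 0 of 33 gene lists and no promoter sequence could be used. The comparison and lists were chosen with earlier results of these data known. Alternatives changed the filter, the scaling, the moderation, array weights, the arrays fitted and the replicate block, treated same-numbered pools as a random block, or left out each array of the groups compared and 1 array outside them.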

Additional observations from a re-analysis of the deposited data

Results flagged for a closer look

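By the interaction test, 292 IDs changed differently with age in the cortex and in the hippocampus of WT mice. Among the 4 named IDs this was so for ENSMUSG00000009376, with a difference of -0.81 log2 (cortex minus hippocampus). That ID was picked for its fall on the same WT cortex arrays and was dim in old cortex. Its call as differing was lost under 7 of 21 other settings. In fits that left out old WT cortex replicate 1, 2 or 3 the count of differing IDs was 69, 524 or 6, and for young WT cortex it was 58, 180 or 597. In fits that left out old WT hippocampus replicate 1, 2 or 3 it was 72, 103 or 135, and for young WT hippocampus 171, 28 or 103. What single pools contribute to this count was not tested further.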

How the results depend on the processing

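The 148 calls in WT cortex (118 rose, 30 fell) numbered 135 to 183 under other filters, scalings, moderations and array weights, and 117 in the fit to the 12 cortex arrays. They numbered 79 (67 rose, 12 fell) in the fit to the 6 WT cortex arrays alone. That fit has fewer residual degrees of freedom and takes its spread from those arrays only, and what lowered the count was not tested. Leaving out single arrays gave 70 to 207 calls, 58 to 158 that rose and 6 to 55 that fell, the highest rising count being that without young KO hippocampus replicate 1. The replicate block gave 139 calls, 132 of them shared, with 112 rising and 27 falling. Same-numbered old and young pools had correlations of their deviations of 0.18, -0.13 and 0.33, and only replicate 3 of old cortex was most like its own number. With 3 pools at each age, these values cannot decide whether the numbers pair the samples. Under all 17 settings 28 IDs remained called, 25 that rose and 3 that fell. An ID dimmer than the 60th percentile could not be among them. In no setting was a called ID called in the opposite direction, a count of 0. Of the 25, the old KO cortex arrays lay wholly above the young in 13 (52%, against 13.6% of all tested IDs) and wholly below in 0, and the old hippocampus arrays wholly above in 17 (68%, against 19.9%) and wholly below in 1. Of the 3, the old arrays lay wholly below the young in 3 in each (7.95% and 13.3% of all tested IDs). The difference between WT and KO cortex had 0 calls in every setting but 1, the 2 calls without young WT cortex replicate 3, and 0 to 2 over the arrays left out. For ENSMUSG00000082286 that difference ran from -0.016 to 0.22 log2 over the arrays left out, and was below 0 without young WT replicate 2 (-0.0041) and without young KO replicate 2 (-0.016). The difference between cortex and hippocampus had 160 calls with no filter, 463 with the filter at the 60th percentile, 471 after quantile normalization, 931 with array weights, 231 with the replicate block, and 6 to 597 without single arrays. The share higher in cortex was 27.1%, 44.6% after quantile normalization and 17.2% after median centring on 402 calls. The causes were not tested. In WT cortex the calls of the 4 named IDs held in every setting that tested them. The unknown background limits the folds of dim IDs. The alternatives planned for counts within gene lists were not run, since the lists need gene names.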
